A study of Mus musculus with 6 samples.

Results

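The genes described here encode respiratory complex I, the NADH:ubiquinone oxidoreductase of mitochondria, and were taken as every row of the deposited gene table whose symbol starts with Nduf. There were 40 such rows among 23930 genes, 33 for subunits (Ndufa, Ndufb, Ndufc, Ndufs and Ndufv) and 7 for assembly factors (Ndufaf). RNA came from microglia, the brain's own macrophages, sorted from perfused brains of adult C57BL/6 mice by a gate for CD11b, low CD45 and absent CD206. One group of 3 mice had received saline (Saline) and the other group of 3 mice methamphetamine (Meth), a psychostimulant that releases monoamines, in both cases as 4 injections 2 h apart, with 5 mg/kg methamphetamine per injection. The series describes the mice as wild type and places the comparison within a study of how astrocyte-derived TNF and glutamate act on microglia after methamphetamine. The libraries were made with an amplicon panel, in which each gene is read through its own primer pair, so an inefficient primer pair and a scarce transcript both give low values.

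Complex I takes electrons from NADH, passes them along a flavin and a chain of iron-sulfur clusters to ubiquinone, and couples this to proton pumping across the inner mitochondrial membrane. Its matrix arm consists of the N module, which oxidises NADH, and the Q module, which reduces ubiquinone, while the membrane arm pumps protons. The conserved catalytic subunits are joined by many accessory subunits, and assembly factors help to build the enzyme without remaining in it. In macrophages and microglia, the balance between glycolysis and oxidative phosphorylation is known to shift with activation, and complex I is also a source of reactive oxygen species.

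The values are the authors' own: for each gene a log2 average of Meth and of Saline, their signed fold change, a nominal p (not adjusted for the number of genes) and the p adjusted for the false discovery rate (FDR). The table has no values per mouse, so standard deviations, intervals and sequencing depth are unknown, and the overlap of the groups could not be examined. The sources used here do not say how the averages were formed from the mice, and they need not be plain means, since averages below 0 occur for 1425 genes in Saline and 14 in Meth (0 complex I genes). Differences below are the Meth average minus the Saline average on the log2 scale. In bulk RNA of sorted cells, fewer cells of a type and less RNA per cell cannot be told apart. The 6 microglial markers given here had averages from 6.81 to 12.23 in Meth and from 7.52 to 12.29 in Saline, Sall1 being the lowest and Csf1r the highest in both groups. Of these markers, 4 were listed lower in Meth, and their linear values summed to 12200 in Meth and 14560 in Saline over all 6. Tmem119 stood at 10.85 in Meth and 11.75 in Saline (nominal p = 0.0454, FDR adjusted p = 0.4773 by the authors' deposited table). Sall1 (nominal p = 0.0572) and Cx3cr1 (nominal p = 0.0671), at 10.66 and 11.27, were lower by 0.71 and 0.61 in the authors' deposited table, whereas Itgam was listed higher (11.66 and 11.49) and P2ry12 at 9.20 in both groups. Among 4 neuron markers, Stmn2 stood at 1.97 in Meth and 0.92 in Saline (nominal p = 0.0014, FDR adjusted p = 0.0607 by the authors' deposited table), a smaller p than that of any complex I gene. Snap25 went the other way, at 0.71 and 1.70, Syt1 and Rbfox3 were at or under 1.01, and the linear values of the 4 genes summed to 4.32 in Meth and 4.18 in Saline. Astrocyte markers (4 genes) were at or under 1.62, monocyte and neutrophil markers (3 genes) at or under 1.90, and the lymphocyte markers Cd3e and Ms4a1 were listed at 0 in both groups. The border macrophage markers Cd163, Lyve1, Pf4 and Cbr2 were at or under 1.16, and Mrc1, the gene of CD206, stood at 4.80 in Meth and 4.44 in Saline. Of the 4 endothelial markers, Pecam1 stood at 6.25 in Meth and 6.44 in Saline, Kdr at 0.61 and 2.27, and the others at or under 0.86. Markers of oligodendrocytes were less low, with Mag at 4.83 in Meth and 3.67 in Saline and Mbp at 4.64 and 3.59, and the linear values of the 4 genes summed to 54.9 and 25.8. The part of these marker differences in the results on complex I was not tested.

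Of the 40 complex I genes, 27 had a higher average in Meth, 12 a lower one, and Ndufa4l2 was listed at 0 in both groups. The typical difference was a small excess in Meth, with a median of 0.46 over all 40 and a mean of 0.07. Of all genes with a group average of 1 or more, 50.7% were higher in Meth, with a median difference of 0.02. No complex I gene was higher by 1 or more on the log2 scale, and 5 were lower by at least that much. They were Ndufv1, Ndufaf5, Ndufb8, Ndufb10 and Ndufb6, whose means of both group averages ranged from 1.8 to 3.7. Of all genes with a group average of 1 or more, 6.69% were higher by 1 or more and 10.75% were lower by as much. The 5 of 40 lower genes were thus near the share of all genes. In the authors' deposited table, 0 of the 40 genes had an FDR adjusted p under 0.05, the lowest being 0.4397, against 2.24% of all genes and 0.357% of genes with a group average of 1 or more. A nominal p under 0.05 was listed for 3 of the 40 (7.5%), against 10.1% of all 23930 genes and 14.7% of genes with a group average of 1 or more. Complex I genes therefore did not pass the authors' test more often than other genes did. The 3 genes were the subunit Ndufc1 and the assembly factor Ndufaf7, both higher in Meth (6.46% of genes with a group average of 1 or more), and the assembly factor Ndufaf5, lower in Meth (8.19% of those genes).

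**Figure D1:**
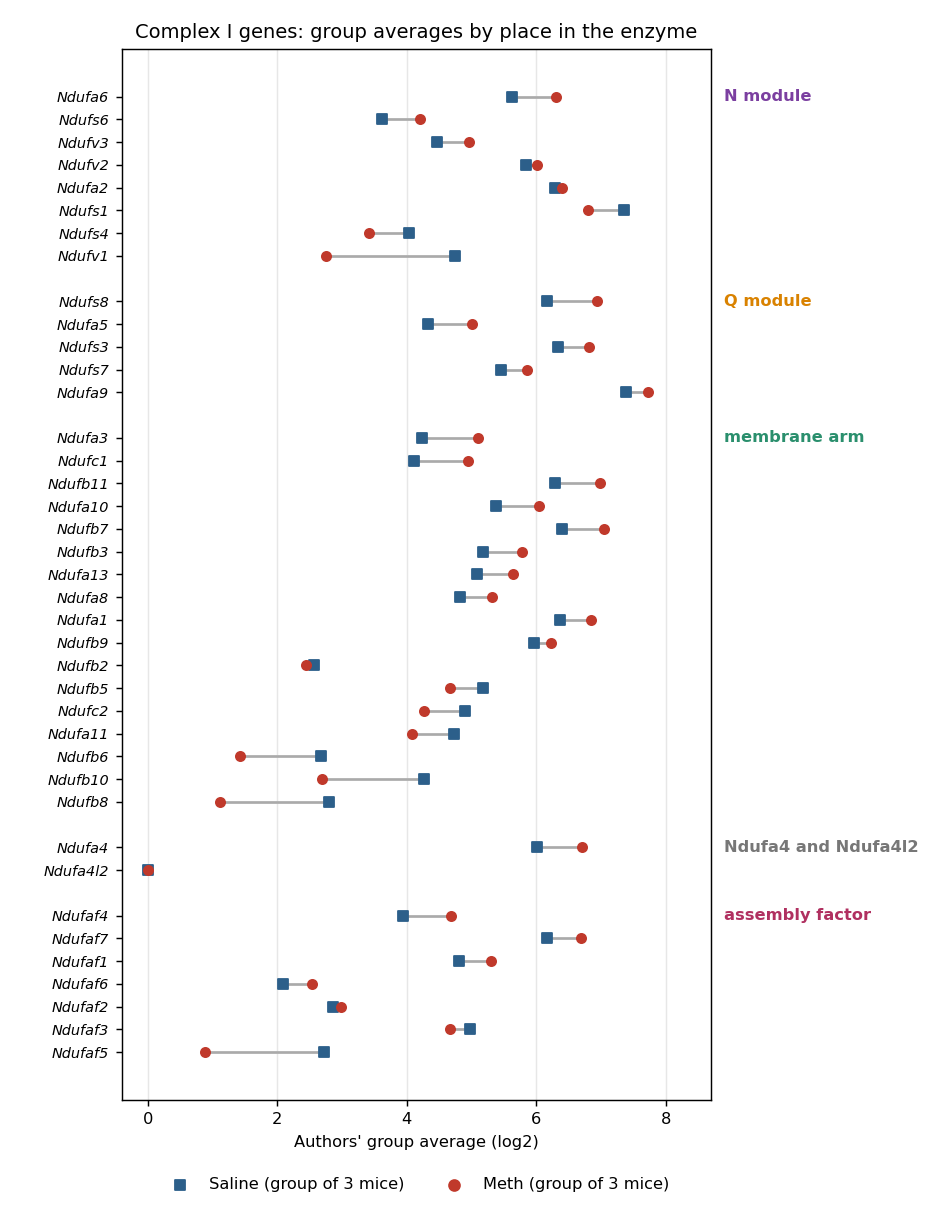
Authors' group averages (log2, horizontal axis) of 39 complex I genes, with Saline as blue squares and Meth as red circles, each a deposited value for a group of 3 mice, ordered by difference within each place in the enzyme. Most red circles lie a little to the right of the squares, while Ndufv1, Ndufaf5, Ndufb8, Ndufb10 and Ndufb6 have theirs 1.25 or more to the left.

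Ndufaf5, an enzyme of the mitochondrial matrix that hydroxylates an arginine of the Q module subunit Ndufs7, had a deposited average of 0.88 in Meth and 2.72 in Saline. This was a 3.57-fold lower value in Meth (nominal p = 0.0357, FDR adjusted p = 0.4397 by the authors' deposited table), the lowest p of all 40 genes. Its substrate Ndufs7 stood at 5.85 in Meth and 5.46 in Saline (nominal p = 0.3456 by the authors' deposited table). Ndufaf7, a methyltransferase that acts on the matrix arm during assembly, stood at 6.69 in Meth and 6.16 in Saline, 1.44-fold higher (nominal p = 0.0395, FDR adjusted p = 0.4585 by the authors' deposited table). Ndufaf5 was listed lower in Meth and its substrate Ndufs7 higher, but neither had an FDR adjusted p under 0.05. The Meth average of Ndufaf5 was also low, at 0.88. Ndufc1, a small accessory subunit of the membrane arm, stood at 4.95 in Meth and 4.11 in Saline, 1.79-fold higher (nominal p = 0.0370, FDR adjusted p = 0.4440 by the authors' deposited table).

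The promoters of these 3 genes are shown because they are the genes with a nominal p under 0.05, together with those of the Q module subunits Ndufs3 and Ndufa5, whose module was listed higher throughout. Each runs from 250 bases before to 50 after the start of the gene in RefSeq (GRCm38.p6), 5′ to 3′ on the strand of the gene, with motif matches in capitals. The positions, in the order of the sequences, are chr2:140170396-140170695 on the plus strand, chr17:78936885-78937184 on the plus strand, chr3:51408906-51409205 on the minus strand, chr2:90904672-90904971 on the minus strand and chr6:24527477-24527776 on the minus strand, the last being 1 of 2 entries for Ndufa5.
Ndufaf5: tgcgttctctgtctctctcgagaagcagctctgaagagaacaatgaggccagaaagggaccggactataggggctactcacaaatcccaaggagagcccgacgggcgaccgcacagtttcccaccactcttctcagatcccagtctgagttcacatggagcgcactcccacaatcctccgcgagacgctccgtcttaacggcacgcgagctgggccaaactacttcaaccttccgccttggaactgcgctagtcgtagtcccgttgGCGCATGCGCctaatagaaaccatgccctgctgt
Ndufaf7: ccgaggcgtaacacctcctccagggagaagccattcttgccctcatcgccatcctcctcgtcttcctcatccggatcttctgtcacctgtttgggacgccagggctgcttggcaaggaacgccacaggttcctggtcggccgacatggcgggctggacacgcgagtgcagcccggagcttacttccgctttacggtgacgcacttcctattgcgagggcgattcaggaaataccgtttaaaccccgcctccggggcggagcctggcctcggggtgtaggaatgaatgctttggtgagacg
Ndufc1: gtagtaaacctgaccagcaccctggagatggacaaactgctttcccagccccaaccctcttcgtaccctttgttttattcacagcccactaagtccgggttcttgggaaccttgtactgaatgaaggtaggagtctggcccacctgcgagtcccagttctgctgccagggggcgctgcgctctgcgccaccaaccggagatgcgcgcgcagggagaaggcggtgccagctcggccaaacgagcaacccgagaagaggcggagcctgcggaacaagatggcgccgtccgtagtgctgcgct
Ndufs3: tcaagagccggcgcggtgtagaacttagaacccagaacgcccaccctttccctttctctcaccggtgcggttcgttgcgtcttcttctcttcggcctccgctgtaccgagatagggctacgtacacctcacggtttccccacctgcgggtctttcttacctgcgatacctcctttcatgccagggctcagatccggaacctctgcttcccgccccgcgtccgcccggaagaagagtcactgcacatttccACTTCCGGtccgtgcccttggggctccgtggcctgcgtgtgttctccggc
Ndufa5: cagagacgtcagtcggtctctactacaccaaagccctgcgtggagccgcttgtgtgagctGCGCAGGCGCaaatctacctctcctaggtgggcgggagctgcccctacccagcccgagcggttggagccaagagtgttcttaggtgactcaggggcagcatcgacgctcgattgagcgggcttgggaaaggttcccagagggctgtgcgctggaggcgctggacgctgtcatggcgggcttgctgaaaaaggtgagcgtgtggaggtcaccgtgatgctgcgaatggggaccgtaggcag
The capitals in Ndufaf5 and Ndufa5 are matches to the NRF1 motif, which was searched with any base at the sixth position, and those in Ndufs3 are a match to CCGGAAGT, the motif of GABPA and other ETS factors, on the opposite strand. NRF1 and GABPA are transcription factors known to bind the promoters of many nuclear genes of the respiratory chain.

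Promoters were found for 34 of the 40 genes. Some genes have several promoter entries, and a gene was counted once if any of its entries held the motif. The NRF1 motif, searched on both strands, was found for 7 of these 34 genes (20.6%), against 5.19% of the 27025 genes with a promoter and 13.5% of the 3746 of them whose mean level was at least 5. The 34 genes were not filtered by level, so the share at a mean level of at least 5 is of an unlike set. The same holds for the motifs below. Its carriers went both ways in the expression data: Ndufaf4, Ndufa6, Ndufa5, Ndufs6 and Ndufa8 were listed higher in Meth by 0.74, 0.69, 0.68, 0.60 and 0.50, and Ndufaf5 and Ndufa11 had differences of -1.84 and -0.65. The ETS motif was found for 1 of the 34 genes (2.94%), against 4.31% of all genes with a promoter and 10.8% of those with a mean level of at least 5. The YY1 motif, also searched on both strands, was found for 4 genes (11.8%), namely Ndufa9, Ndufs4, Ndufs6 and Ndufs7, against 0.755% and 2.3%. A match describes the letters in this window and is no site of binding.

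All 6 subunits of the Q module, where electrons reach ubiquinone, had a higher average in Meth, with differences from 0.33 to 0.78 and a median of 0.58. The catalytic subunit Ndufs8, which holds iron-sulfur clusters, stood at 6.94 in Meth and 6.16 in Saline, 1.71-fold higher (nominal p = 0.1552 by the authors' deposited table). Ndufs3, a core subunit of the matrix arm, stood at 6.81 and 6.34, 1.39-fold higher (nominal p = 0.0528, FDR adjusted p = 0.4996 by the authors' deposited table). Ndufa5, an accessory subunit bound to the matrix arm, stood at 5.00 and 4.32 (nominal p = 0.0971 by the authors' deposited table). Ndufa9, which binds a nucleotide cofactor near the junction with the membrane arm, stood at 7.72 and 7.39 and had the smallest difference of the module (nominal p = 0.3129 by the authors' deposited table). The 6 genes shared a direction, but 0 of the 6 had a nominal p under 0.05. Across genes with a group average of 5 or more, 53.9% were higher in Meth, with a median difference of 0.07. The shared direction was not particular to the Q module. Of the complex I genes whose mean of both group averages was at least 5, 19 of 20 were higher in Meth. These included all 8 membrane arm subunits at that level.

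The N module, which takes up electrons from NADH, was divided, with 5 of its 8 measured subunits higher in Meth, 3 lower and a median difference of 0.15. Its catalytic subunit Ndufv1, which binds NADH and the flavin, had the largest difference of all complex I genes, with 2.75 in Meth and 4.74 in Saline. The authors' deposited table lists this as 3.97-fold lower in Meth, yet with a nominal p of 0.2421. Its direct partner Ndufv2, an iron-sulfur protein, stood at 6.01 and 5.84 (nominal p = 0.5493 by the authors' deposited table), so the partners of the NADH-binding site were listed in opposite directions. Ndufs1, the largest catalytic subunit and the carrier of several iron-sulfur clusters, stood at 6.80 in Meth and 7.35 in Saline, 1.47-fold lower (nominal p = 0.0655 by the authors' deposited table). Among the accessory subunits, Ndufa6, which anchors an acyl carrier protein, had the largest excess in Meth, 6.31 against 5.62 (nominal p = 0.2589 by the authors' deposited table). The zinc-binding subunit Ndufs6, which joins late in assembly, stood at 4.21 and 3.61, 1.52-fold higher (nominal p = 0.0806 by the authors' deposited table). Ndufs4, whose loss causes a Leigh-like disease in mice, stood at 3.42 and 4.03 (nominal p = 0.5714 by the authors' deposited table). Ndufv3 and Ndufa2 were listed higher by 0.50 and 0.12. Reads of Ndufs6 and Ndufa11 may include those of the pseudogenes Ndufs6b and Ndufa11b that RefSeq lists, since how the panel's reads were assigned is not given in the sources used here.

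Taken by catalytic role, 5 of the 7 nuclear-encoded core subunits had a higher average in Meth and 2 (Ndufv1 and Ndufs1) a lower one, both of the latter in the N module. Their median difference was 0.39 and their mean -0.003, the mean being pulled down by Ndufv1. The smallest nominal p among them was that of Ndufs3, given above. The core subunits encoded by mitochondrial DNA were not analysed here, since 0 of the 7 mt-Nd symbols is in the table.

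**Figure D2:**
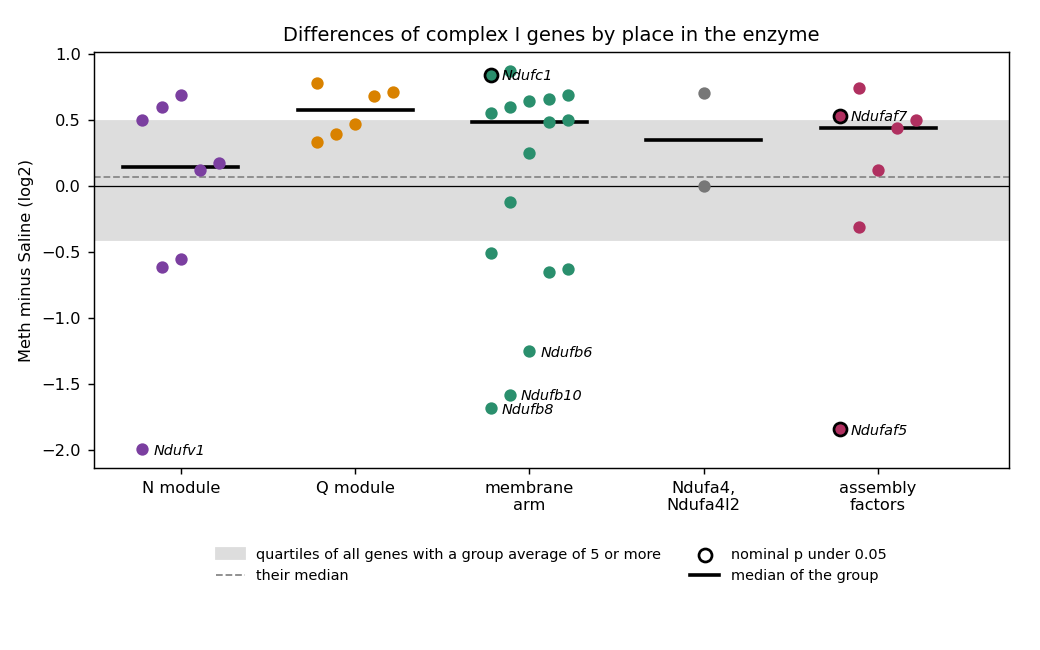
Meth minus Saline difference (log2, vertical axis) of each complex I gene by place in the enzyme, with group medians as black bars and black rings where the deposited nominal p was under 0.05. The grey band spans -0.41 to 0.49, the quartiles of all genes with a group average of 5 or more. The 6 Q module genes are all above 0, and the other places with several genes hold genes on both sides of it. Over all places, 19 of the 20 genes whose mean of both group averages was at least 5 are above 0.

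In the membrane arm, 10 of 17 measured subunits had a higher average in Meth and 7 a lower one, with a median difference of 0.48 and a mean of -0.02. Of its 6 Ndufa subunits, 5 were listed higher. Ndufa3 had the largest excess of all complex I genes, 5.10 in Meth and 4.23 in Saline, a 1.83-fold difference (nominal p = 0.1389 by the authors' deposited table). Ndufa13, known also as GRIM-19 and linked to cell death, stood at 5.64 and 5.09 in the deposited averages. Ndufa10, which has the fold of a nucleoside kinase, stood at 6.04 and 5.38, and Ndufa8, a protein of the intermembrane space side with cysteine pairs, at 5.32 and 4.82. Ndufa1, encoded on the X chromosome and needed for assembly of the arm, stood at 6.85 and 6.37. The exception was Ndufa11, a transmembrane subunit, at 4.08 in Meth and 4.73 in Saline (nominal p = 0.4098 by the authors' deposited table).

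The Ndufb subunits, which lie in the distal part of the membrane arm, were divided, with 4 of 9 higher in Meth and 5 lower. Ndufb11, which is X-linked like Ndufa1, was listed at 6.98 in Meth and 6.29 in Saline, Ndufb7 at 7.04 and 6.40, Ndufb3 at 5.78 and 5.18, and Ndufb9 at 6.22 and 5.97, all with higher Meth averages. By contrast, Ndufb8 stood at 1.12 in Meth and 2.80 in Saline, 3.20-fold lower (nominal p = 0.1354 by the authors' deposited table). Ndufb10 stood at 2.69 and 4.27, 2.99-fold lower (nominal p = 0.0821 by the authors' deposited table), and Ndufb6 at 1.43 and 2.68, 2.37-fold lower (nominal p = 0.1968 by the authors' deposited table). Of the 9 genes, 0 had a nominal p under 0.05. Ndufb5 (4.67 and 5.18) and Ndufb2 (2.45 and 2.57) were also listed lower in Meth. The Ndufc subunits were split as well, since Ndufc2 stood at 4.27 in Meth and 4.90 in Saline (nominal p = 0.2877 by the authors' deposited table), opposite in direction to Ndufc1.

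Direction and level went together among the complex I genes. Of the 20 complex I genes whose mean of both group averages was at least 5, 19 were higher in Meth, with a median difference of 0.52, and Ndufs1 was the single lower one. Of the 19 with a mean level under 5 and above 0, 8 were higher and 11 lower, with a median of -0.31. Among all genes, 54.3% of those with a mean level of at least 5 and 47.8% of those from 1 to under 5 were higher in Meth, so the background moved the same way by much less. In the membrane arm, the 8 subunits with a mean level of at least 5 were all higher in Meth, and 7 of the 9 subunits under that level were lower. Spearman's rho between mean level and difference was 0.45 across 39 complex I genes and 0.08 across the 10375 genes with a group average of 1 or more; both are descriptions across genes of the same 6 libraries. This division by level was made after the values were seen, and with the split at an average of at least 5 in either group 21 of 23 genes were higher.

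**Figure D3:**
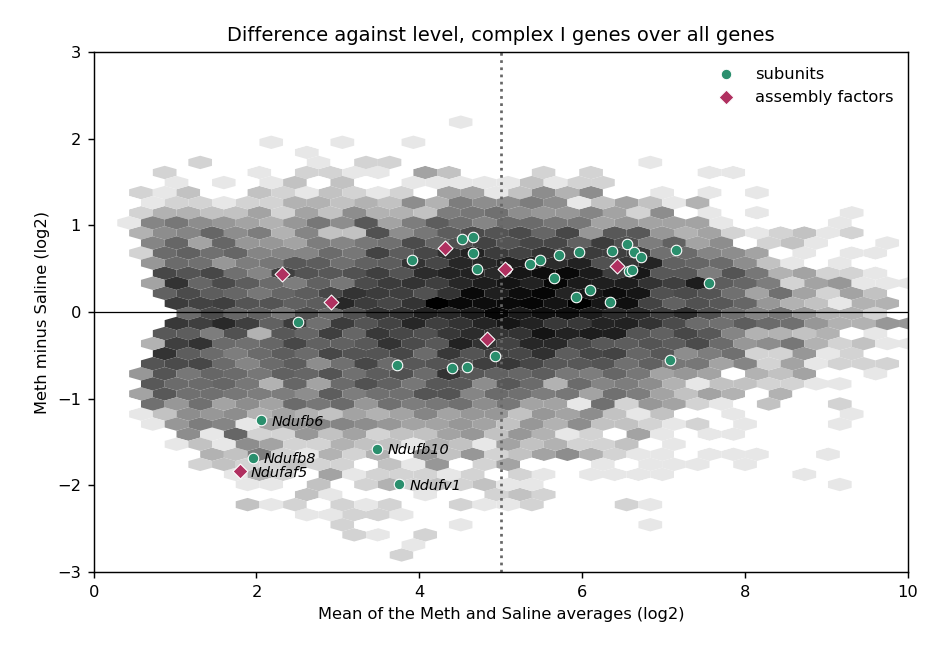
Meth minus Saline difference (log2, vertical axis) against the mean of both group averages (log2, horizontal axis, shown up to 10) for subunits (green circles) and assembly factors (red diamonds), over the density of all genes with a group average of 1 or more (grey, darker for more genes). To the right of the dotted line at 5, 19 of 20 complex I genes are above 0; the 5 named genes, lower by 1 or more, are to its left.

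The 33 subunits and the 7 assembly factors are described by their medians and counts. The subunits had a median difference of 0.47, with quartiles from -0.51 to 0.66, and the assembly factors a median of 0.44, with quartiles from -0.10 to 0.52. Of the subunits 22 were higher in Meth and 10 lower, and of the assembly factors 5 were higher and 2 lower. A nominal p under 0.05 was listed for 1 of 33 subunits (3.03%) and 2 of 7 assembly factors (28.6%), the latter in opposite directions. Among all genes the share was 10.1%, and among genes with a group average of 1 or more it was 14.7%. The medians differed by 0.03, and members of an enzyme are no replicates, so no test was made. Means in place of medians were 0.08 for the subunits and 0.03 for the assembly factors, since a few genes with large negative differences weigh more in a mean.

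Among the other assembly factors, Ndufaf1, part of the membrane-bound assembly complex for the inner part of the membrane arm, stood at 5.30 in Meth and 4.80 in Saline, 1.41-fold higher (nominal p = 0.3456 by the authors' deposited table). The partners Ndufaf3 and Ndufaf4, which bind each other and help to join the Q module to the membrane, were listed in opposite directions. Ndufaf4 stood at 4.68 and 3.94, 1.67-fold higher (nominal p = 0.1033 by the authors' deposited table), and Ndufaf3 at 4.67 and 4.98, 1.24-fold lower (nominal p = 0.7782 by the authors' deposited table). Ndufaf2, a paralogue of Ndufa12 that acts when the N module is added, stood at 2.98 and 2.86 (nominal p = 0.5057 by the authors' deposited table). Ndufaf6, which acts early in assembly, stood at 2.53 and 2.09 (nominal p = 0.3370 by the authors' deposited table).

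Ndufa4 was first counted as a complex I subunit and later assigned to complex IV. It stood at 6.71 in Meth and 6.01 in Saline, 1.62-fold higher (nominal p = 0.1478 by the authors' deposited table). Its paralogue Ndufa4l2, a gene known to be induced by hypoxia, was listed at 0 in both groups.

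Complex I assembly genes with other names were mostly listed higher in Meth. Of the 14 in the table, 12 were higher and 2 lower, with a median difference of 0.29 and a mean of 0.22 (0.44 and 0.03 for the Ndufaf factors, a difference that was not tested). A nominal p under 0.05 was listed for 14.7% of genes with a group average of 1 or more, and for 1 of these 14 (7.1%). That one was Sfxn4, a sideroflexin needed for complex I assembly, at 1.58 in Meth and 2.42 in Saline (nominal p = 0.0331, FDR adjusted p = 0.4276 by the authors' deposited table). The partners of Ndufaf1 in its assembly complex, Tmem126b at 2.18 and 1.77, Acad9 at 4.30 and 3.81, Ecsit at 3.33 and 3.11 and Timmdc1 at 5.13 and 4.94, were listed higher in Meth like Ndufaf1, and Tmem186 at 4.59 and 4.83 was not. With these 14 genes added, the median of the assembly factors was 0.31.

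The genes of complexes II to V were set beside those of complex I. Of 32 genes in the table, 19 were higher in Meth and 12 lower, with a median difference of 0.27. A nominal p under 0.05 was listed for 14.7% of genes with a group average of 1 or more, and for 1 of these 32 (3.1%). That was Cyc1, the cytochrome c1 of complex III, at 7.16 in Meth and 6.42 in Saline (nominal p = 0.0237 by the authors' deposited table). Of the 25 with a mean level of at least 5, 17 were higher (68.0%), with a median of 0.35, and of the 7 under that level 2 were higher and 4 lower, with a median of -0.09. Direction thus differed by level there too, as among the complex I genes, and whether the 2 divisions differ was not tested. As a share of the summed linear values of all genes, the 40 complex I genes took 0.224% in Meth and 0.171% in Saline, and those of complexes II to V 0.306% and 0.260%. No test of these shares was possible with 1 value per group, so no difference between complex I and the other complexes is shown.

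Genes that supply complex I with its cofactors were mixed. In the list for iron-sulfur cluster assembly, 4 of 8 were higher and 4 lower, with the cysteine desulfurase Nfs1 at 4.74 in Meth and 4.13 in Saline (nominal p = 0.0354 by the authors' deposited table). The cochaperone Hscb, which acts on the scaffold of the same pathway, stood at 2.39 and 3.12 (nominal p = 0.0118 by the authors' deposited table), in the opposite direction. Ubiquinone synthesis, the source of the electron acceptor, had 8 of 13 genes higher and 5 lower. Its 3 genes with a nominal p under 0.05 were Pdss1, which makes the isoprenoid tail, at 4.42 and 3.50 (p = 0.0275), the hydroxylase Coq6 at 5.16 and 4.13 (p = 0.0257), and Adck4 (Coq8b) at 4.34 and 5.63 (p = 0.0110), all in the authors' deposited table. At an FDR adjusted p under 0.05, 0 genes of either list passed in the authors' test.

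Regulators of nuclear respiratory genes had 5 of 11 genes higher in Meth and 6 lower, with a median of -0.28, opposite in sign to that of complex I. Pprc1, a coactivator of the PGC-1 family, stood at 5.29 in Meth and 4.83 in Saline (nominal p = 0.0068, FDR adjusted p = 0.2008 by the authors' deposited table). Yy1 stood at 5.41 and 6.40 (nominal p = 0.0656 by the authors' deposited table) and Gabpa at 3.89 and 5.17 (nominal p = 0.1005 by the authors' deposited table). Gabpb2 went the other way, at 5.80 and 4.66 (nominal p = 0.1007 by the authors' deposited table), and Gabpb1 stood at 5.97 and 6.29. Nrf1 itself stood at 6.24 and 6.02 (nominal p = 0.9680 by the authors' deposited table). Of the matrix proteases, which remove damaged subunits, Lonp1 stood at 6.33 and 5.80 (nominal p = 0.0143 by the authors' deposited table), Clpp at 5.57 and 5.11 and Clpx at 1.03 and 1.78.

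**Figure D4:**
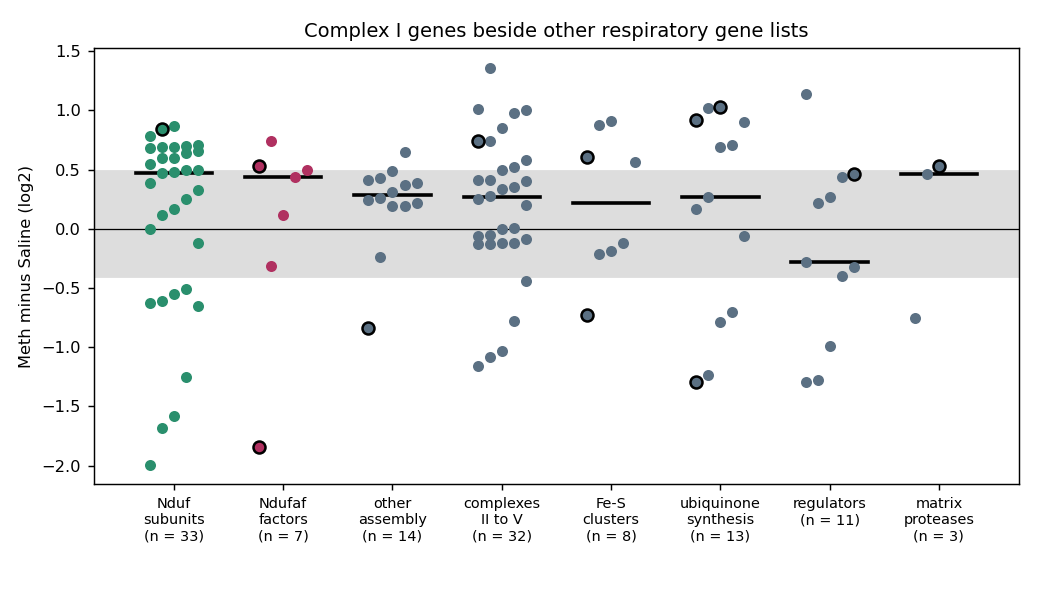
Meth minus Saline difference (log2, vertical axis) of Nduf subunits, Ndufaf assembly factors and 6 other lists, with medians as black bars, black rings at a nominal p under 0.05, and the grey band of the quartiles of all genes with a group average of 5 or more. The medians of the subunits and of the assembly factors are at 0.47 and 0.44, and the regulators have the one median below 0.

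Large differences of complex I genes had lower p-values than the smallest ones, but mostly not under 0.05. Of the 5 genes lower by 1 or more, 1 had a nominal p under 0.05 in the authors' deposited table, and the nominal p of the 5 ranged from 0.0357 to 0.2421. Of all genes with a group average of 1 or more, 10.7% were lower by as much, and how many of those had a nominal p under 0.05 is not given here. The 5 genes with a difference under 0.3 in size but not 0 (Ndufa2, Ndufv2, Ndufb2, Ndufb9 and Ndufaf2) had nominal p-values from 0.5057 to 0.7019 in the authors' deposited table. Another 6 complex I genes had a nominal p from 0.05 to under 0.1 in the authors' deposited table. Of these, 4 were higher in Meth (among them Ndufs3, Ndufs6 and Ndufa5) and 2 lower (Ndufs1 and Ndufb10). The share of all genes in this range of p is not given here, so the count cannot be read as an excess. With p-values adjusted over the genes with a group average of 1 or more, the lowest adjusted p of a complex I gene was 0.333. Transcripts richer in GC tended to have larger differences across the table (Spearman's rho 0.21, 9965 genes), while across 39 complex I genes rho was 0.01. Once the GC and length trends were subtracted, the medians were 0.32 for the subunits and 0.31 for the assembly factors. GC and length here were those of the longest transcript, not of the stretch read by each primer pair, whose own trend was not examined.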

How the data were processed

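Microglial RNA of 3 Saline and 3 Meth mice was read with an Ion AmpliSeq mouse panel on an Ion S5XL sequencer, per the labels' protocols. The aligner, build, counting, normalization and model: not given in the sources used here. Per the file headers, the deposited columns are log2 averages of both groups, a fold change, a p-value and its FDR adjusted value. The fold change is deposited as a signed score, a linear ratio with a minus sign where Saline is higher, and matches the difference of the averages within 0.017. The linear values (2 to the power of the average, minus 1) sum to 981392 in Meth and 1012049 in Saline, which was taken to mean log2 of RPM (reads scaled to a fixed library total) plus 1. Averages below 0 occur for 1425 genes in Saline and 14 in Meth, which plain means of such values cannot give, and how the averages were formed is not stated.

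The call rule was an FDR adjusted p under 0.05 as deposited. Members and lists were chosen with earlier results of these data known. Values were given for every member with a nominal p under 0.05, for the largest and smallest difference in each place of the enzyme, for all core subunits and assembly factors, and for up to 3 genes of each other list with the smallest p. Further genes were named after their values were seen, and 1 member, included in every count, and 1 marker are not reported here by name. Of 49 protein-coding Nduf genes in RefSeq, 9 are not in the table (Ndufa7, Ndufa12, Ndufab1, Ndufaf8, Ndufb1, Ndufb4, Ndufb4b, Ndufb4c and Ndufs5) and were not analysed here. GC content and length came from the longest transcript in GENCODE M21 (40 of 40 members matched), and their trend was removed as the median in 20 bins over genes with a group average of 1 or more. The Benjamini-Hochberg adjustment and this step were tested on simulated data. Python 3.11.15, numpy 2.4.6, pandas 2.3.3 and matplotlib 3.10.9 were used.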

Additional observations from a re-analysis of the deposited data

How the results depend on the processing

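No paired analysis was possible because the table holds group averages only, so neither a fit with the replicate number as a block nor fits leaving out each mouse were run. The count of complex I genes called, 0, was the same when p-values were adjusted over genes with a group average of 1 or more, or of 5 or more. At a nominal p under 0.01, 0 were higher and 0 lower, and the share of all genes at that threshold is not given here. Among the 23 members with a group average of 5 or more, 1 was higher and 0 lower at a nominal p under 0.05 (4.35%). The share among all genes with a group average of 5 or more was 15.6%. Medians were counted as moved past a change of 0.1. The mean in place of the median was 0.08 for subunits and 0.026 for assembly factors. Once the GC and length trends of the longest transcripts were subtracted, the medians were 0.315 and 0.31. With a pseudocount of 5, that of the assembly factors was 0.244, and the subunit median minus the assembly factor median was 0.19. That contrast was -0.04 with a pseudocount of 0.1, a reversed sign, and 0.16 with the other assembly genes added; the cause was not tested. The other settings tried kept both medians above 0 and within 0.1 of the values reported. Depth is unknown, and the spread between mice cannot be seen.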
